A study of Rattus norvegicus with 15 samples.

Results

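The 9 genes described here belong to the integrated stress response, to the unfolded protein response of the endoplasmic reticulum and to its mitochondrial counterpart. They were taken from a fixed list of Ensembl gene identifiers. An identifier was kept where its chromosome in the count files was the chromosome of the named gene, and 9 of 9 were kept, of 32552 genes in the files. Their expression was measured by polyA RNA sequencing of primary rat cortical astrocytes in 5 groups of 3 libraries. The control cells received vehicle water. The cells of the other groups were exposed to 100 uM H2O2 for 30 min. The H2O2 group had no further addition. 24 h after the exposure, the mitochondria group received unmodified mitochondria isolated from cryopreserved rat placenta. The MitoCoat group received mitochondria of that source coated with the lipids DOTAP and DOPE. The MitoCoat-mRNA group received RNA associated with the mitochondria, encapsulated in those lipids. RNA was collected 6 h after the treatment, and all cells were cultured from newborn Sprague Dawley rats. The fields of the labels look displaced, with wild type given as the cell type and polyA RNA as the batch, so the genotype and the RNA selection are read from them with that doubt.

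Cells lower general protein synthesis when kinases such as PERK phosphorylate the translation factor eIF2-alpha, and the transcription factor ATF4 is then translated more efficiently. ATF4 induces amino acid synthesis genes and, under lasting stress, CHOP and TRIB3, which are tied to cell death. Misfolded protein in the endoplasmic reticulum also activates IRE1 and ATF6, which raise the lumenal chaperones, and a related response in mitochondria raises chaperones of the matrix. In astrocytes these pathways are active in injury and in neurodegeneration.

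The libraries held 35315654 to 46778663 counts on genes. All 9 genes passed the filter on low counts in every comparison. The study calls the libraries of a group biological replicates, drawn at random from its RNA samples. Its methods state that in vitro experiments were repeated independently, without tying the sequenced libraries to those repeats, and the labels name no culture or litter. Hence the p-values measure the spread among these libraries, which may be partly technical. The labels describe an extraction from mitochondria-enriched fractions, whereas the study's methods describe astrocyte RNA. Placental and astrocyte RNA are both of rat, so delivered transcripts of these genes cannot be told apart from the astrocytes' own. Fewer cells expressing a gene and less of its RNA per cell cannot be told apart either. Astrocyte markers were not analysed here, because the reference used does not pair Ensembl identifiers with symbols.

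The promoters of 5 genes are shown first, because 3 of them carry the pattern by which ATF6 is known to bind chaperone genes, 1 carries all but its last base, and 1 carries a heat shock element. Each line gives the 250 bases upstream of the transcription start, 5' to 3' on the strand of the gene, from the RefSeq promoter table of the GRCr8 assembly. Capitals in the chaperone genes mark the endoplasmic reticulum stress element (ERSE), which is CCAAT and CCACG with 9 free bases between them, on either strand. In Pdia4 they mark the same pattern without its last base.
Hspa5: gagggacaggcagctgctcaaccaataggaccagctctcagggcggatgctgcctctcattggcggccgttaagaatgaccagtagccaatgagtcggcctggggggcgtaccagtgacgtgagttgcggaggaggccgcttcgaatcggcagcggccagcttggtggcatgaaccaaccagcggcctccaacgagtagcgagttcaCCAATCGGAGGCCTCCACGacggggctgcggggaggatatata
Hsp90b1: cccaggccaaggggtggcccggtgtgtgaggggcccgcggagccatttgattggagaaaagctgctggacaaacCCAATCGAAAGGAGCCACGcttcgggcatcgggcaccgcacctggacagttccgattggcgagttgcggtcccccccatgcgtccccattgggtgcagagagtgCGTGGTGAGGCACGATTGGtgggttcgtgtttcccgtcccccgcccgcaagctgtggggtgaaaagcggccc
Calr: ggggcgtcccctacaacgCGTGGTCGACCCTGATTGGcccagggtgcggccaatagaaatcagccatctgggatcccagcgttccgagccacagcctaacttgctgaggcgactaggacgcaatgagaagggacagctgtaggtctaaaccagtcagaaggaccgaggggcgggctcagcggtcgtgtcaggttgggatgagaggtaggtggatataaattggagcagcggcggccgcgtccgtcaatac
Pdia4: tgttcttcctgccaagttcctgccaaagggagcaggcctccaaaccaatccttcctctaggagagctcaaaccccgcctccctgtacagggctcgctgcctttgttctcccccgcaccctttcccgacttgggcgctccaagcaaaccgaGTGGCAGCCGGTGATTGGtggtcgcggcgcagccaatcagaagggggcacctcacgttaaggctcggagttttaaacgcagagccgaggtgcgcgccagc
Hspd1: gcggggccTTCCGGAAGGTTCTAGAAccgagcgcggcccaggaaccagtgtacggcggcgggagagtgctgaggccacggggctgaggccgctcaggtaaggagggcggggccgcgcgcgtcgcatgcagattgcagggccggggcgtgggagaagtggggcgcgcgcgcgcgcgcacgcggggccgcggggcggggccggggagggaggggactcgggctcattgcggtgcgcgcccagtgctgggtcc
In Hspd1, capitals mark 2 overlapping matches, on opposite strands, to the heat shock element, searched as GAA, TTC and GAA with 2 free bases between neighbours. The Hspa5 sequence lies at chr3:38452766-38453015 on the plus strand and that of Calr at chr19:40213117-40213366 on the plus strand. Calr is on the minus strand in the Rnor6.0 files, so its strand differs between the builds. The sequences of Hsp90b1 (chr7:23012294-23012543), Pdia4 (chr4:78153192-78153441) and Hspd1 (chr9:64084038-64084287) are on the minus strand.

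The full ERSE stood in 3 of the 9 promoters, against 22 of 33469 RefSeq promoters of 300 bases (0.0657%). It began 43 bases upstream of the start in Hspa5 and 176 bases upstream in Hsp90b1, which held a match on the opposite strand 72 to 54 bases upstream. In Calr it lay on the opposite strand, 232 to 214 bases upstream. The pattern without its last base, which every full ERSE also contains, stood in 4 of the 9, adding Pdia4, and in 105 promoters of the table (0.314%). The heat shock element was present in Hspd1 alone among the 9 and in 0.798% of all promoters. The CEBP-ATF response element, searched on both strands as TGATGNAA, was present in Trib3 alone among the 9, 21 to 14 bases upstream, and in 3.98% of all promoters. The ERSE-II pattern (ATTGG and CCACG with 1 free base between them) and the UPRE pattern (TGACGTGG), both searched on either strand, were in none of the 9 windows, against 0.0508% and 0.595% of the table. A match is a run of letters and says nothing of binding in these cells, and a missing match says only that those letters are not in this window.

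The 9 genes spanned a wide range of levels, with Calr, Hspa5 and Hsp90b1 at the top and Trib3 at the bottom. Counts were scaled to library size as CPM. Per kilobase of exon (CPM per kb), the control mean was 719.9 ± 43.4 for Calr, 315 ± 9.27 for Hspa5, 254 ± 26.7 for Hsp90b1 and 128 ± 10.0 for Atf4 (SD, n = 3). Pdia4 followed at 101 ± 8.05 and Hspd1 at 85.3 ± 5.14 CPM per kb. Ddit3 stood at 28.0 ± 1.97, Asns at 20.9 ± 2.67 and Trib3 at 0.626 ± 0.125 CPM per kb. No test was made between genes.

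**Figure D1:**
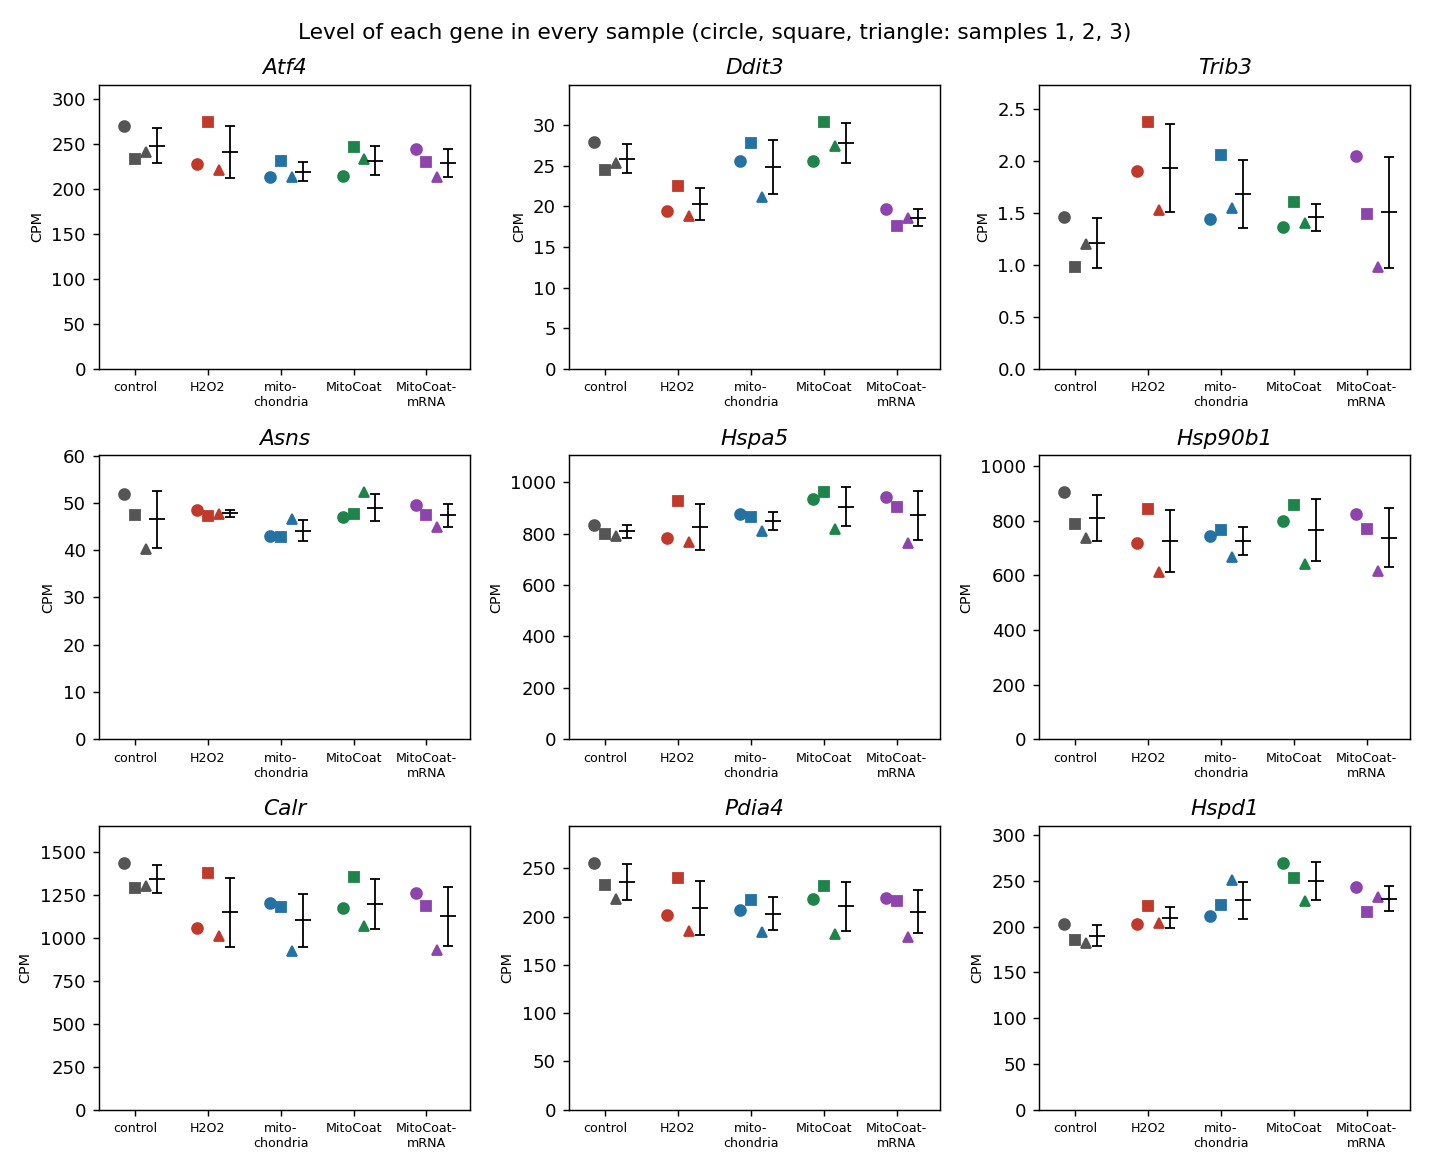
Level of each of the 9 genes in every library, in CPM on separate linear axes that start at 0, with the 5 groups along the horizontal axis; points are libraries and bars are the group mean with its SD (n = 3). Ddit3 was between 17.5 and 19.6 CPM in the MitoCoat-mRNA libraries and between 25.6 and 30.4 CPM in the MitoCoat libraries, and the mean of Hspd1 was lowest in the controls.

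Across the 10 pairs of groups, 4 of 90 tests were called at an adjusted p under 0.05 (edgeR quasi-likelihood F test, two-sided, Benjamini-Hochberg over all genes tested). That is 4.44% of the tests of these genes, against 8.30% of the tests of all genes over the same comparisons and 0% to 24.1% in single comparisons. Ddit3 accounted for 2 of the calls and Hspd1 for the other 2. No call was made in these fits, which had no replicate block, for Atf4, Trib3, Asns, Hspa5, Hsp90b1, Calr or Pdia4. Libraries of the same number were read as paired where their deviations from group means all correlated above 0.1, in 5 of the 10 comparisons. The labels name no culture or litter that would show such a pairing. The block called Calr and Pdia4 lower in MitoCoat-mRNA than in control, where the replicate numbers paired the libraries. That fit called 36.9% of all genes. The block also called Ddit3 in mitochondria against MitoCoat-mRNA (adjusted p = 0.0343, edgeR), where the numbers paired the libraries too. It called Ddit3 in MitoCoat against H2O2 (adjusted p = 0.0356, edgeR). It ended the Ddit3 call in MitoCoat against MitoCoat-mRNA (adjusted p = 0.0527, edgeR). In those last comparisons the numbers were not read as pairing the libraries. In 74 of the 90 tests the 95% interval of the fold change lay within 1.5-fold in either direction. That share was not computed over all genes, so it does not set these genes apart from others. Comparisons that share the control or the H2O2 libraries are not independent of each other.

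The question of the first comparison was what the earlier H2O2 exposure had left in these genes at collection. Of the 9 genes, 0 were called, against 7.19% of all genes tested. DESeq2 on the 6 libraries also called 0, DESeq2 on all 15 called 1 (15.5% of all genes in that fit), and 2 genes had an unadjusted p under 0.05 in edgeR, against 22.4% of all genes. With library sizes scaled over the 6 libraries, the groups did not overlap for Ddit3, Trib3 and Hspd1, 3 of 9, against 28% of all genes. The median log2 fold change was -0.03 over the 9 genes and 0.01 over all genes.

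Atf4 (ENSRNOG00000017801, Rnor6.0 chr7:121480723-121482772, plus strand) encodes the central transcription factor of the integrated stress response. The control libraries held 271, 233 and 242 CPM and the H2O2 libraries 228, 275 and 222 CPM, so the groups overlapped. Libraries given mitochondria held 213, 232 and 213 CPM, those given MitoCoat 215, 246 and 234 CPM, and those given MitoCoat-mRNA 244, 229.8 and 213 CPM. The log2 fold change of H2O2 against control was -0.03 (95% interval -0.28 to 0.22, adjusted p = 0.90 by edgeR), and its sign changed when control 1, H2O2 1 or H2O2 3 was left out. The 3 mitochondria libraries were below all 3 controls, with a log2 fold change of -0.18 (-0.37 to 0.01) that was not called (adjusted p = 0.17 by edgeR). ATF4 is controlled largely at translation, which RNA counts do not measure.

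Ddit3 (ENSRNOG00000006789, Rnor6.0 chr7:70580198-70585084, plus strand) encodes CHOP, a transcription factor induced by ATF4 in lasting stress. Its level was 27.9, 24.5 and 25.3 CPM in the controls and 19.5, 22.6 and 18.8 CPM in the H2O2 libraries, which were all below the controls. The mitochondria libraries held 25.6, 27.8 and 21.2 CPM and the MitoCoat libraries 25.6, 30.4 and 27.4 CPM. The MitoCoat-mRNA libraries held 19.6, 17.5 and 18.6 CPM. Ddit3 was thus in a lower range in H2O2 and MitoCoat-mRNA and in a higher one in control, mitochondria and MitoCoat, except that mitochondria 3, at 21.2 CPM, was below H2O2 2. The group means were 27.8 ± 2.42 CPM in MitoCoat, 25.9 ± 1.82 in control, 24.9 ± 3.36 in mitochondria, 20.3 ± 1.99 in H2O2 and 18.6 ± 1.04 in MitoCoat-mRNA (SD, n = 3). Of the neighbours in that order, MitoCoat and control, control and mitochondria, mitochondria and H2O2, and H2O2 and MitoCoat-mRNA were not called different.

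Ddit3 was 1.48-fold higher (95% interval 1.27 to 1.74) in MitoCoat than in MitoCoat-mRNA, at a log2 fold change of 0.57 ± 0.10 (SE, adjusted p = 0.0161, edgeR). It was the 1 gene of the 9 called in that comparison, in which 2.98% of all genes were called, 1.57% in the higher direction. The 3 MitoCoat libraries were above the 3 MitoCoat-mRNA libraries in Ddit3 alone among the 9, against 19.8% of all genes whose groups did not overlap, and Ddit3 was the 1 gene at an unadjusted p under 0.05, against 14.8%. Leaving out MitoCoat 2, MitoCoat-mRNA 2 or MitoCoat-mRNA 3 ended the call, with the log2 fold change between 0.51 and 0.64 over all 6 omissions. A replicate block also ended the call (log2 fold change 0.57, adjusted p = 0.0527, edgeR), though the numbers were not read as pairing these libraries. Ddit3 was lower in MitoCoat-mRNA than in control, at a log2 fold change of -0.47 ± 0.09 and a fold of 0.72 (adjusted p = 0.0125, edgeR). In that comparison 2 of the 9 genes were called, 1 in each direction, against 15.9% of all genes, 7.18% higher and 8.72% lower. Leaving out MitoCoat-mRNA 2 ended the Ddit3 call, at a log2 fold change of -0.44. The same 2 genes had an unadjusted p under 0.05, against 31.9% of all genes, and 3 of 9 (Ddit3, Calr and Hspd1) did not overlap, against 36.3%.

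H2O2 against control gave Ddit3 a log2 fold change of -0.34 (-0.60 to -0.08), not called by edgeR on the 6 libraries (adjusted p = 0.12) and called by DESeq2 on all 15 (adjusted p = 0.0302). Against H2O2, Ddit3 differed by 0.45 (0.17 to 0.72) on the log2 scale in MitoCoat (adjusted p = 0.0982), by 0.29 (-0.01 to 0.58) in mitochondria (adjusted p = 0.37) and by -0.13 (-0.37 to 0.12) in MitoCoat-mRNA (adjusted p = 1.0), all by edgeR. These comparisons share the H2O2 libraries. For MitoCoat against H2O2, DESeq2 on 6 and on 15 libraries and edgeR on 15 each called Ddit3, in fits that called 5.57%, 9.19% and 5.44% of all genes. The replicate block called it too (adjusted p = 0.0356, edgeR), in a fit that called 5.88% of all genes. The numbers were not read as pairing the libraries of that comparison. Mitochondria against MitoCoat-mRNA gave 0.42 (0.17 to 0.68, adjusted p = 0.0889 by edgeR). The replicate block called Ddit3 there (adjusted p = 0.0343, edgeR), in a fit that called 7.33% of all genes. The replicate numbers were read as pairing those libraries. Coated against unmodified mitochondria gave 0.16 (-0.11 to 0.43, adjusted p = 0.91 by edgeR).

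A comparison chosen after the data were seen set the 6 libraries given whole mitochondria, coated or not, against the 6 stressed libraries without them. Ddit3 was 1.36-fold higher (1.20 to 1.53) in the former, with a log2 fold change of 0.44 ± 0.08 and adjusted p = 0.00303 (edgeR), where 1479 of 16378 genes (9.03%) were called. It was called in each of 12 fits that left out 1 library, with log2 fold changes from 0.40 to 0.49. No other gene of the 9 was called in it. Because the groups had been seen to differ, this value describes these libraries and is no independent test. The annotated span of Ddit3 overlaps a gene on the opposite strand by 72 bases, and that gene held 3868 to 5315 counts per library against 697 to 1229 for Ddit3. The methods describe counting by strand only where it applied, so whether reads of the overlap were told apart by strand is not known here.

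Trib3 (ENSRNOG00000007319, Rnor6.0 chr3:147813473-147819571, minus strand) encodes a pseudokinase that is an ATF4 and CHOP target and binds AKT. It was near the limit of this depth, with 40 to 94 counts per library. The controls held 1.46, 0.975 and 1.20 CPM and the H2O2 libraries 1.90, 2.37 and 1.53 CPM, without overlap. The fold was 1.61 (1.00 to 2.58) and was not called (adjusted p = 0.22, edgeR). The mitochondria libraries held 1.44, 2.06 and 1.55 CPM, the MitoCoat libraries 1.36, 1.61 and 1.40, and the MitoCoat-mRNA libraries 2.05, 1.49 and 0.982. These ranges overlapped each other, the H2O2 range and the control range.

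Asns (ENSRNOG00000007546, Rnor6.0 chr4:33743364-33761163, minus strand) encodes asparagine synthetase, an ATF4 target in amino acid shortage. Its group means lay between 44.2 ± 2.19 CPM in mitochondria and 49.0 ± 2.81 CPM in MitoCoat (SD, n = 3). The H2O2 libraries held 48.6, 47.2 and 47.6 CPM and the controls 51.9, 47.5 and 40.2 CPM, so the H2O2 values lay within the control range. The log2 fold change of H2O2 against control was 0.05 (-0.19 to 0.29), and -0.044 without control 3. Coated against unmodified mitochondria gave 0.14 (-0.06 to 0.35) with no overlap of the groups, not called (adjusted p = 0.89, edgeR).

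**Figure D2:**
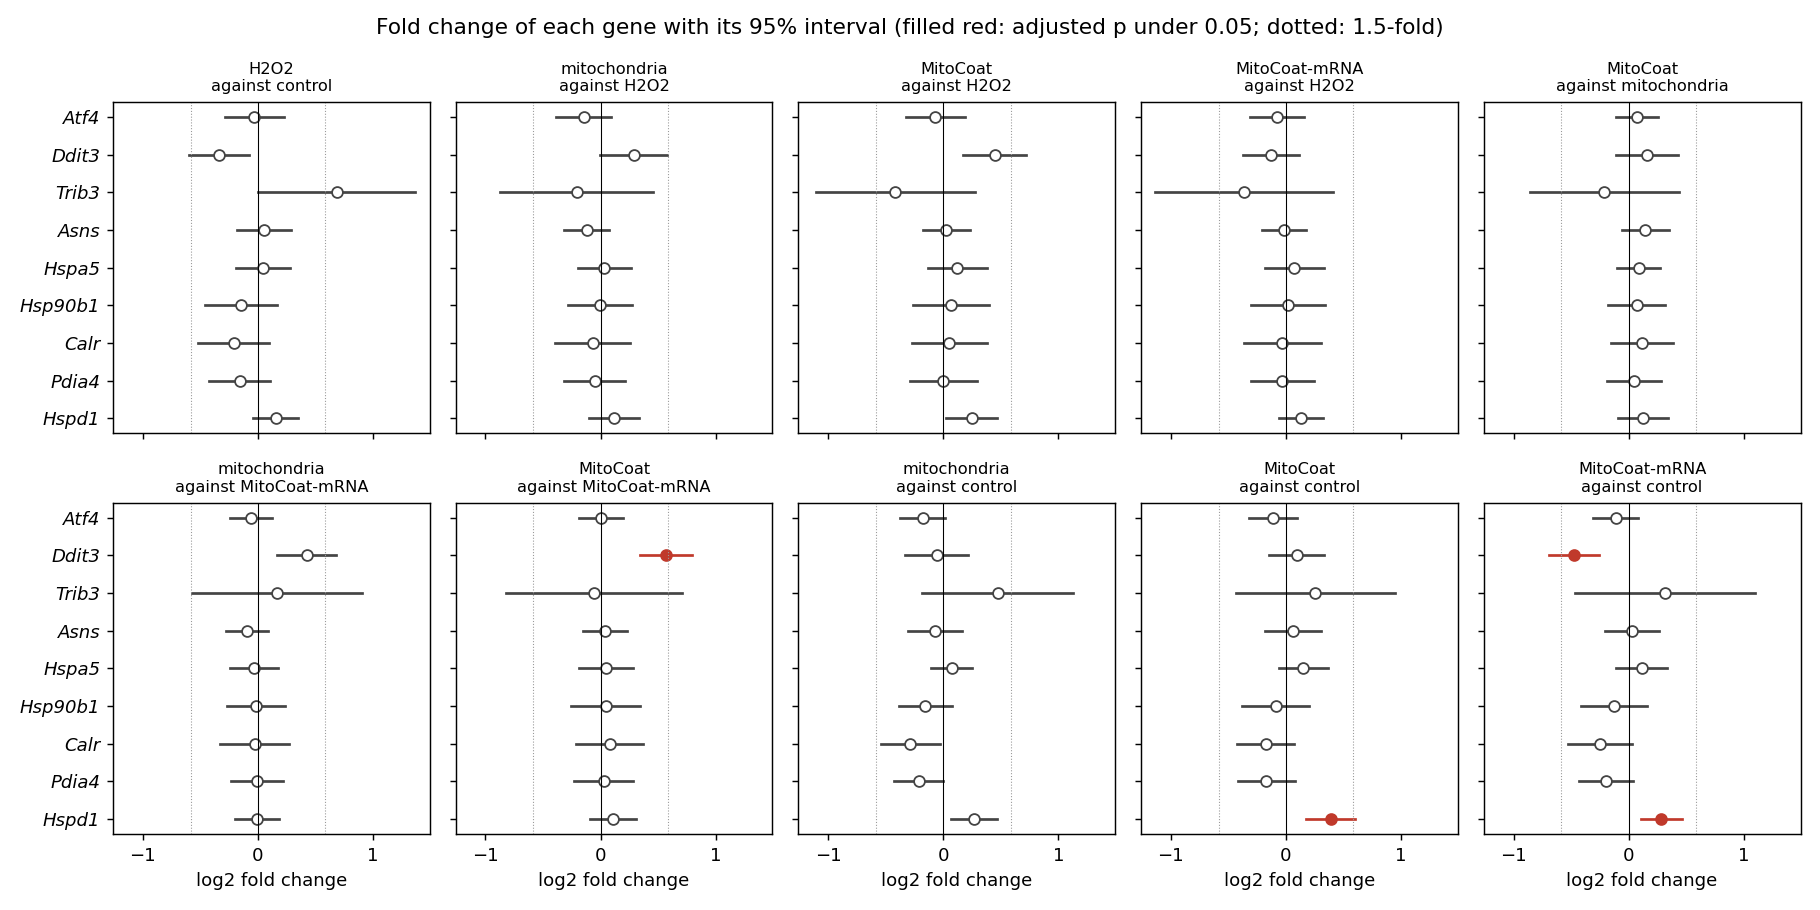
Log2 fold change of each gene with its 95% interval from the edgeR fit of 6 libraries, for the comparisons named in the panels; filled points are called at an adjusted p under 0.05. Most intervals cross 0, and the called values are those of Ddit3 in MitoCoat against MitoCoat-mRNA and MitoCoat-mRNA against control and of Hspd1 in MitoCoat and MitoCoat-mRNA against control.

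Hspa5 (ENSRNOG00000018294, Rnor6.0 chr3:13838304-13842762, plus strand) encodes BiP, the main chaperone of the endoplasmic reticulum lumen and the regulator that holds PERK, IRE1 and ATF6 inactive. The controls held 835, 799 and 789.9 CPM and the H2O2 libraries 782, 927 and 767 CPM. The mitochondria libraries held 874, 862 and 810.3 CPM, the MitoCoat libraries 935, 959.8 and 819 CPM, and the MitoCoat-mRNA libraries 942, 904 and 764 CPM. All of these ranges overlapped that of H2O2. Against H2O2, the fold was 1.02 in mitochondria, 1.09 in MitoCoat and 1.05 in MitoCoat-mRNA, and against control the log2 fold changes were 0.07 (-0.10 to 0.25), 0.15 (-0.06 to 0.36) and 0.11 (-0.11 to 0.33). Hspa5 was not called in any of the 10 comparisons by edgeR.

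Hsp90b1 (ENSRNOG00000026963, Rnor6.0 chr7:27226569-27240533, minus strand) encodes GRP94, the HSP90 chaperone of the endoplasmic reticulum. It held 904, 789 and 738 CPM in the controls and 719.5, 844 and 615 CPM in the H2O2 libraries, which overlapped. Against H2O2 the log2 fold changes were -0.01 (-0.28 to 0.27) in mitochondria, 0.07 (-0.26 to 0.40) in MitoCoat and 0.02 (-0.30 to 0.34) in MitoCoat-mRNA, and each changed sign when single libraries were left out. The other group means were 727 ± 51.6 CPM in mitochondria, 767 ± 112 in MitoCoat and 738 ± 107 in MitoCoat-mRNA (SD, n = 3). Calr (ENSRNOG00000003029, Rnor6.0 chr19:25956771-25961666, minus strand) encodes calreticulin, a lectin chaperone that also holds calcium in the lumen. It held 1436, 1291 and 1301 CPM in the controls and 1055, 1379.9 and 1012 CPM in the H2O2 libraries. The MitoCoat libraries, at 1174, 1352 and 1068 CPM, overlapped both. All 3 mitochondria libraries, at 1200.1, 1182 and 922 CPM, and all 3 MitoCoat-mRNA libraries, at 1259.7, 1187 and 931 CPM, were below the controls, and neither difference was called in the fit without a block. The log2 fold changes were -0.28 (-0.55 to -0.02, adjusted p = 0.11) and -0.25 (-0.53 to 0.03, adjusted p = 0.20) by edgeR.

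Pdia4 (ENSRNOG00000006228, Rnor6.0 chr4:77470636-77489535, minus strand) encodes ERp72, a protein disulfide isomerase. It held 256, 232 and 218 CPM in the controls and 207, 217.5 and 184 CPM in the mitochondria libraries, which were below the controls by a small margin (217.5 against 218.4) and differed by -0.21 (-0.43 to 0.00) on the log2 scale (adjusted p = 0.15, edgeR). The H2O2 libraries held 201, 240.1 and 185 CPM, the MitoCoat libraries 218.0, 232 and 182 CPM and the MitoCoat-mRNA libraries 219.5, 216.0 and 179 CPM, and all 3 ranges overlapped that of the controls. The replicate numbers were read as pairing the libraries of MitoCoat-mRNA against control. With a replicate block in that comparison, Calr was lower by -0.26 (adjusted p = 0.00613) and Pdia4 by -0.20 (adjusted p = 0.00959), both called by edgeR. With Ddit3 and Hspd1 this made 4 of 9 genes, against 36.9% of all genes called in the same fit, so the share of the 9 was close to that of all genes. Hspa5 and Hsp90b1 were not called there.

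The 4 endoplasmic reticulum chaperones varied together between libraries of a group. After the group means were removed, Pearson's r between pairs of them over the 15 libraries had a median of 0.938 (0.901 to 0.983, 6 pairs), against 0.443 (-0.02 to 0.847) within the 4 genes of the integrated stress response and 0.301 (0.01 to 0.408) between Hspd1 and the other genes. Between the integrated stress response genes and these chaperones the median was 0.701 (-0.0048 to 0.773, 16 pairs), so Atf4, Ddit3 and Trib3 also moved with them, while r for Asns was at most 0.167. Among 13297 genes ranked by this r, the closest to Hspa5 were Pdia4 at 0.945, Hsp90b1 at 0.942 and Calr at 0.935, in that order. The other anchors gave lower ranks in part. From Hsp90b1, Pdia4 ranked 1, Hspa5 9 and Calr 45, from Pdia4 the ranks were 1 for Hsp90b1, 8 for Hspa5 and 21 for Calr, and from Calr they were 16 for Hspa5, 17 for Pdia4 and 52 for Hsp90b1. The integrated stress response genes ranked further down from Hspa5, at 431 for Trib3, 689 for Atf4, 2020 for Ddit3 and 6421 for Asns. Many other genes thus moved with Hspa5 more closely than they did. On the levels, which keep the group means, Hsp90b1 ranked 267, Calr 1262 and Pdia4 1404 from Hspa5. On that scale, Pdia4 was the gene most like Hsp90b1 (r = 0.958) and the gene most like Calr (r = 0.946). These are descriptions over 15 libraries that share a normalisation. On the levels, the gene nearest to Atf4 was ENSRNOG00000047931 (r = 0.941, chrX:28593405-28595395 in Rnor6.0) and that nearest to Hspa5 was ENSRNOG00000032902 (r = 0.904, chr10:40380388-40381886).

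The summed level of the 4 chaperones was 3196 ± 206 CPM in the controls (3047 to 3431), 2910 ± 426 in H2O2, 2881 ± 256 in mitochondria, 3080 ± 348 in MitoCoat and 2939 ± 396 in MitoCoat-mRNA (SD, n = 3). The library numbered 3 had the lowest sum in all 5 groups, with a mean deviation from its group of between -0.08 and -0.22 on the log2 scale. The share of counts on mitochondrially encoded genes was 2.81% to 4.61% per library and moved with these deviations (r = 0.717, Spearman's rho = 0.736, n = 15), while the total count did so less (r = -0.233). Its part in the covariation was not tested. Among the integrated stress response genes, Atf4 moved with Trib3 (r = 0.847) and with Ddit3 (r = 0.778) and less with Asns (r = 0.291). The deviations of Ddit3 from its group means moved with the mitochondrial share as well (r = 0.635), and its part in the Ddit3 values was not tested.

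**Figure D3:**
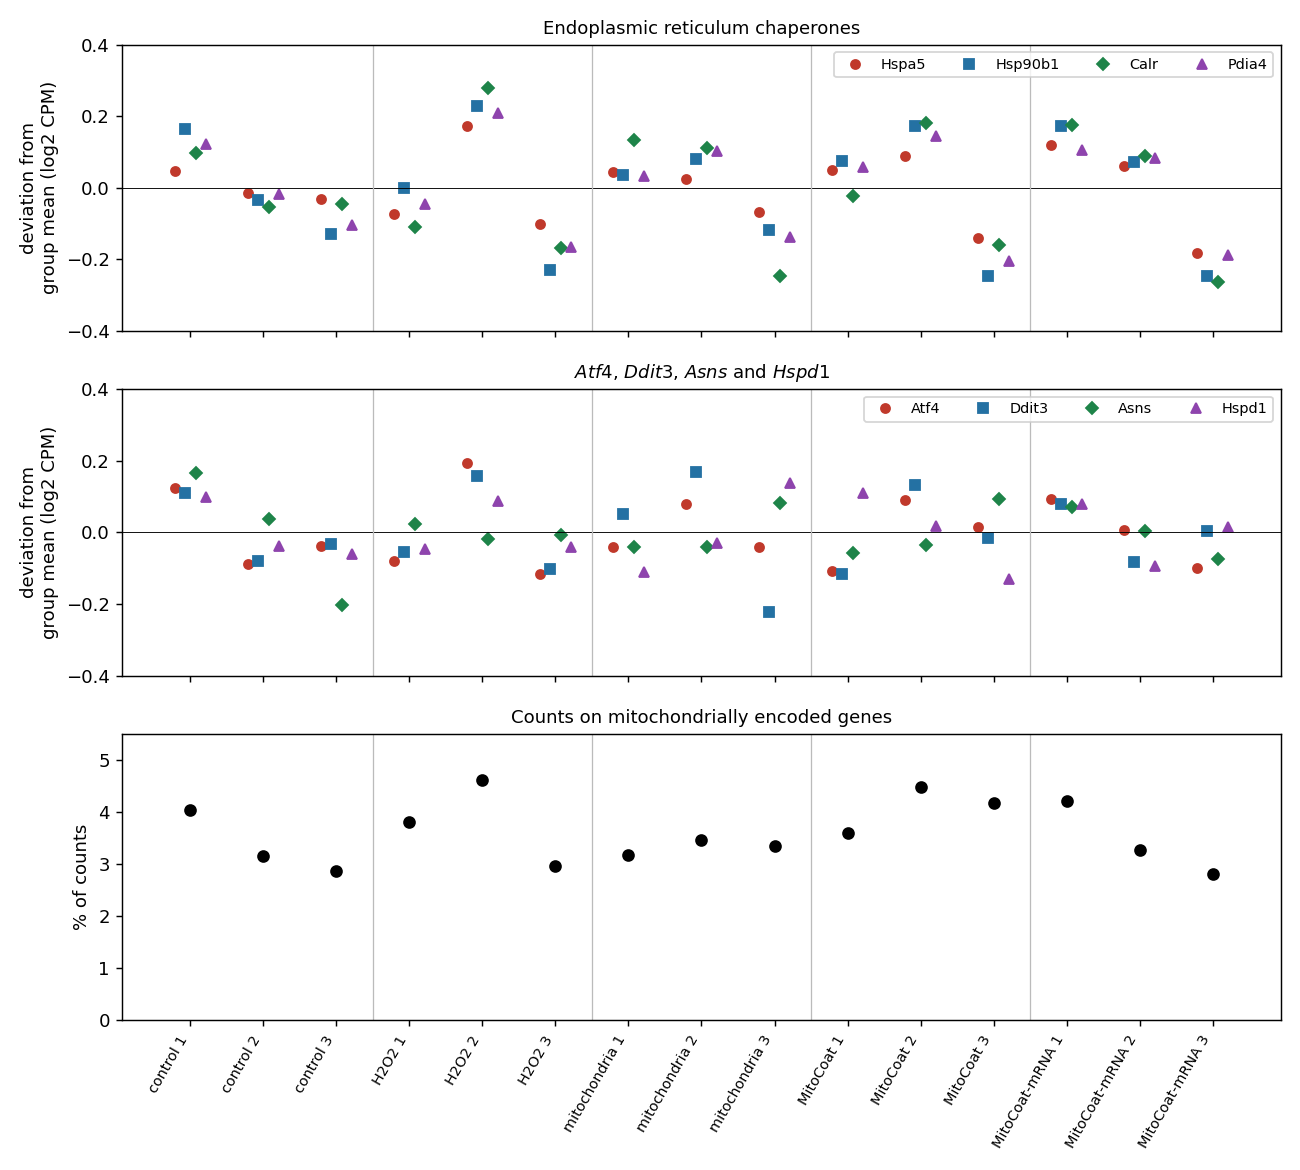
Deviation of each library from its group mean in log2 CPM for the 4 endoplasmic reticulum chaperones (top) and for Atf4, Ddit3, Asns and Hspd1 (middle), with the percentage of counts on mitochondrially encoded genes below; the 15 libraries stand along the horizontal axis. The 4 chaperones lie close together in each library, and those numbered 3 are below 0 in every group.

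**Figure D4:**
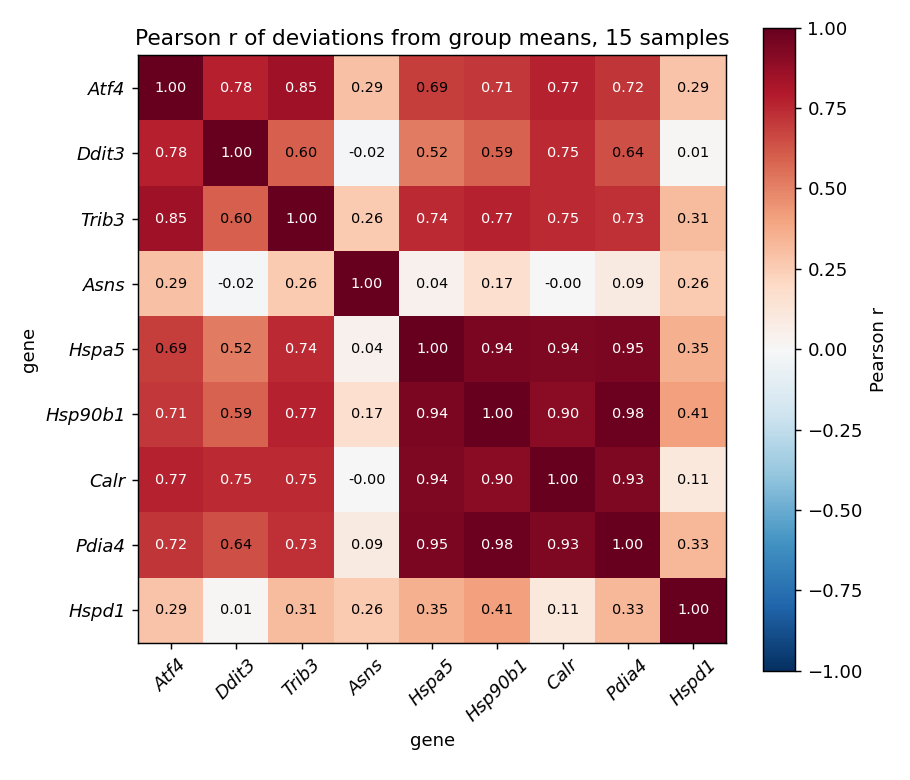
Pearson's r between the deviations from group means of each pair of the 9 genes over 15 libraries, on a colour scale from -1 to 1. The 6 pairs of endoplasmic reticulum chaperones form the block of highest values, 0.901 to 0.983, while Asns and Hspd1 have low values with most genes.

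Hspd1 (ENSRNOG00000014525, Rnor6.0 chr9:61680530-61690956, minus strand) encodes HSP60, the chaperonin of the mitochondrial matrix and a target of the mitochondrial unfolded protein response. The controls held 203.1, 185 and 182 CPM and the H2O2 libraries 202.9, 223 and 204 CPM, which overlapped by the nearly equal H2O2 1 and control 1 on the scale of all 15 libraries and did not overlap on that of the 6. The mitochondria libraries held 211, 224 and 251 CPM, the MitoCoat libraries 269.6, 253 and 228 CPM, and the MitoCoat-mRNA libraries 244, 216 and 233 CPM. Every library of the 3 treated groups was above every control. The group means were in the order control (190.0 ± 11.4 CPM), H2O2 (209.7 ± 11.3), mitochondria (229 ± 20.5), MitoCoat-mRNA (231 ± 14.05) and MitoCoat (250.4 ± 20.7; SD, n = 3), and no neighbours in that order were called different.

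Against control, Hspd1 rose 1.31-fold (1.13 to 1.51) in MitoCoat, a log2 fold change of 0.39 ± 0.09 (SE, adjusted p = 0.0163, edgeR). It was the 1 gene of the 9 called, against 24.1% of all genes, 11% in the higher direction. It was also the 1 gene at an unadjusted p under 0.05, against 37.6% of all genes, and the 1 whose groups did not overlap, against 41.7%. It rose 1.22-fold in MitoCoat-mRNA, a log2 fold change of 0.28 ± 0.08 (adjusted p = 0.0400, edgeR). That comparison called 15.9% of all genes, 7.18% in the higher direction. The replicate block also called Hspd1 in MitoCoat-mRNA (adjusted p = 0.00045, edgeR), in a fit that called 36.9% of all genes. In mitochondria the log2 fold change was 0.27 (0.07 to 0.47, adjusted p = 0.0598, edgeR), where 0 of the 9 genes were called against 22.5% of all genes. DESeq2 on 6 and on 15 libraries and edgeR on 15 each called Hspd1 there, in fits that called 23.1%, 23.1% and 21.7% of all genes. In that comparison 2 genes, Calr and Hspd1, had an unadjusted p under 0.05, against 34.9% of all genes, and 4 (Atf4, Calr, Pdia4 and Hspd1) did not overlap, against 39.6%. All of these share the control libraries. Leaving out control 2, control 3 or MitoCoat 2 ended the call in MitoCoat, with a log2 fold change from 0.33 to 0.45 over the 6 omissions. Leaving out any library but control 1 ended the call in MitoCoat-mRNA, with log2 fold changes from 0.24 to 0.34. H2O2 against control gave 0.15 (-0.04 to 0.35, adjusted p = 0.33, edgeR), and MitoCoat against H2O2 gave 0.25 (0.02 to 0.47, adjusted p = 0.28, edgeR). RefSeq lists 20 Hspd1 pseudogenes in rat, so reads could be split between copies, and its values are uncertain to that extent.

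In the comparisons of treated with H2O2 cells, which address whether organelles or RNA changed these genes after stress, edgeR on the 6 libraries without a block called 0 of 9 in each. For mitochondria this stood against 3.59% of all genes, with 0 genes at an unadjusted p under 0.05 (13.8% of all genes) and 0 called by DESeq2 on 6 or 15 libraries. Asns was the 1 gene without overlap there, against 19.2%. For MitoCoat it stood against 3.05%, with 2 genes, Ddit3 and Hspd1, at an unadjusted p under 0.05 (14.9% of all genes) and 1, Ddit3, called by DESeq2 on 6 libraries (5.57% of all genes), by DESeq2 on 15 (9.19%) and by edgeR on 15 (5.44%). Ddit3 and Hspd1 did not overlap, against 20.4%. The replicate block also called Ddit3, in a fit that called 5.88% of all genes. For MitoCoat-mRNA it stood against 0% of all genes, with 0 at an unadjusted p under 0.05 (2.99% of all genes) and 0 by DESeq2. All 9 overlapped, where 8.84% of all genes did not. MitoCoat against mitochondria likewise called 0 of 9 and 0% of all genes, with 0 at an unadjusted p under 0.05 (4.95% of all genes) and 0 by DESeq2 in either fit. Asns alone did not overlap, against 11.1%. Mitochondria against MitoCoat-mRNA called 0 of 9 against 3.56% of all genes, with 1, Ddit3, at an unadjusted p under 0.05 (14.2% of all genes) and 1 by DESeq2 on 6 (5.44% of all genes) or 15 libraries (4.98%). Ddit3 alone did not overlap, against 19.4%. The replicate block also called Ddit3 there, in a fit that called 7.33% of all genes. The median log2 fold change of the 9 genes in these 5 comparisons lay between -0.05 and 0.09.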

How the data were processed

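Primary rat astrocytes, 5 groups of 3 samples, were grouped by the titles in the labels. Per the labels, the authors' pipeline was Trimmomatic 0.36 for trimming, then STAR 2.5.2b against Rnor 6.0, and the submitters' processing notes name featureCounts of Subread 1.5.2 for counting. The deposited counts are raw and are the unit used here. The methods describe uniquely mapped reads over exons, counted by strand where that applied, without saying whether it applied to these libraries. An extra file for the whole series held the same values as that of mitochondria 2 and was not used.

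Each pair of groups was fitted with edgeR 4.0.16 in R 4.3.3 (filterByExpr, TMM, quasi-likelihood F test, two-sided, Benjamini-Hochberg adjustment over all genes tested), on the 6 samples and without a block. CPM used TMM library sizes over all 15 samples, and log2 CPM a prior count of 2. DESeq2 1.42.0, other filters, RLE factors, a replicate block and the omission of each sample were alternatives. The scripts were tested on simulated counts with larger fold changes than those called here and without a replicate effect. That test does not cover changes of the size reported. Intervals cover the fitted model only.

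The named genes were the 9 members, chosen, like the lists and motifs, with earlier results of these data known. At most 2 other identifiers were printed, the nearest in level to Atf4 and Hspa5. The rest of the pathway and the cell type markers were not analysed here, since 0 of 47357 reference genes carried an Ensembl identifier. Promoters were matched by symbol (9 of 9). No 2 samples of a group were copies: chi-square per degree of freedom was 10.6 to 59.7 over 15 pairs. The replicate numbers were read as pairing samples where every correlation of same-numbered deviations was over 0.1, which held in 5 of 10 comparisons (correlations -0.06 to 0.40 over all pairs): mitochondria, and MitoCoat-mRNA, against H2O2, MitoCoat against mitochondria, mitochondria against MitoCoat-mRNA, and MitoCoat-mRNA against control. Figures used matplotlib 3.10.9 in Python 3.11.15.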

Additional observations from a re-analysis of the deposited data

How the results depend on the processing

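Of 419 recomputed log2 fold changes of 32 results, 372 kept their direction and side of the threshold, 13 lost the call, 16 gained one and 18 changed sign. Over all 9 genes and 10 comparisons, 81 of 1170 recomputed values changed sign, in 36 of the 90 tests, none of them called before or after. Omitting 1 sample took Atf4 from -0.14 to 0.031 and Asns from -0.044 to 0.13 in H2O2 against control, and Hspa5 from -0.010 to 0.13 in mitochondria against H2O2. It took Hsp90b1 from -0.10 to 0.12 in mitochondria, from -0.044 to 0.20 in MitoCoat and from -0.087 to 0.14 in MitoCoat-mRNA, each against H2O2. Hsp90b1 in mitochondria against H2O2 was also above 0 with DESeq2 on 6 samples (0.00050), edgeR on 15 (0.0027), at least 1 count (0.013), at least 10 counts in every sample (0.0035) and the replicate block (0.0055). Of 146 recomputed counts of called genes, 119 were within 1.5 times the reported count. For H2O2 against control, DESeq2 on 15 samples gave 1 in place of 0. For MitoCoat against H2O2, DESeq2 on 6 or 15 samples, edgeR on 15 and the replicate block each gave 1 in place of 0. For mitochondria against MitoCoat-mRNA, DESeq2 on 6 or 15 samples, the filter of at least 1 count and the replicate block each gave 1 in place of 0, and omitting 1 sample gave 0 to 1 (1 without mitochondria 3). For MitoCoat against MitoCoat-mRNA, the replicate block gave 0 in place of 1 (Ddit3 at a log2 fold change of 0.57, adjusted p = 0.0527 by edgeR). The numbers were not read as pairing these samples. Omissions gave 0 to 1 in that comparison. For mitochondria against control, DESeq2 on 6 or 15 samples and edgeR on 15 gave 1 in place of 0, and omissions 0 to 1 (1 without control 1). For MitoCoat against control, omissions gave 0 to 1 in place of 1. For MitoCoat-mRNA against control, the replicate block gave 4 in place of 2, while over all genes it gave 5756 in place of 2482, and omissions 0 to 2: 0 without MitoCoat-mRNA 2, and 1 without control 2, control 3, MitoCoat-mRNA 1 or MitoCoat-mRNA 3. The cause was not tested. The block changed no other count. Group means in CPM moved by less than 1 SD in all 90 recomputed values. Depth limited Trib3 most, at 40 to 94 counts. Each group had 3 samples.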
